A study of Homo sapiens with 12 samples.

Results

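The BCL2 family sets whether a cell commits to mitochondrial apoptosis, and 10 of its genes were examined by symbol: BCL2, BCL2L1, MCL1, BCL2A1, BCL2L11, BBC3, PMAIP1, BID, BAX and BAK1. They are 10 of the 20572 genes tested in the series, and each of the 10 had 1 probe set with a single gene symbol, so no choice between probe sets was needed. All 10 passed the filter on low values on all 12 arrays. The cells were MDA-MB-231, an established breast cancer line grown from a pleural effusion and known to carry mutant p53. The 4 groups had 3 arrays each, and all lasted 24 h: TNFα at 40 ng/ml plus apigenin at 40 µM, TNFα at 40 ng/ml alone, apigenin at 40 µM alone, and untreated control cells. Per the labels' protocols the treatments were prepared in HBSS at doses called sub-lethal, and the labels do not say whether control cells received the same solution. TNFα is an inflammatory cytokine that signals through NF-κB and death receptors, and apigenin is a plant flavone. The arrays come from 1 cell line, so other breast cancer cells are not represented.

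Pro-survival members of the family (BCL2, BCL-XL from BCL2L1, MCL1 and A1 from BCL2A1) sit on the mitochondrial outer membrane and hold pro-apoptotic members in check. BH3-only members (BIM from BCL2L11, PUMA from BBC3, NOXA from PMAIP1, and BID) bind the pro-survival proteins or activate the effectors. The effectors BAX and BAK1 form pores that release cytochrome c, which starts the caspase cascade. Much of this control acts on the proteins, which arrays of RNA do not measure, and caspase 8 downstream of death receptors cleaves BID to its active form.

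The values are deposited log2 expression values, which ran from 0.536 to 12.495 over all probe sets, with array medians of 2.09 to 2.16. Within groups, pairs of arrays correlated across genes at r = 0.983 to 0.991, and no pair was identical. The basal and mesenchymal markers of this line were present, all 7 of 7 above the filter, and the median of the list on an array lay between 7.50 and 7.72 for both treatments, between 8.22 and 8.32 for TNFα, between 7.29 and 7.54 for apigenin, and between 7.98 and 8.07 for control cells. Of the 8 luminal markers, ESR1 (1.84 to 2.44), PGR (1.37 to 1.84), FOXA1 (1.504 to 2.27) and CDH1 (1.81 to 2.104) lay near or below the array medians. The other 4 read higher, with EPCAM at 4.58 to 5.24, GATA3 at 3.65 to 4.67, KRT18 at 2.93 to 4.04 and KRT8 at 2.64 to 3.66. Array medians lay between 1.51 and 2.07 for leukocyte markers, of which 3 of 6 passed the filter. They lay between 1.97 and 2.15 for fibroblast markers (4 of 5) and between 2.03 and 2.28 for endothelial markers (4 of 5). In those lists the lysosomal CD68 read 9.52 to 9.95, the VEGF receptor KDR 2.87 to 5.52 and the monocyte marker CD14 1.51 to 2.87 over the 12 arrays. The endothelial list summed to 8.98 to 9.87 with both treatments and 11.19 to 11.25 with TNFα. It summed to 8.71 to 9.72 with apigenin and 9.57 to 10.54 in control. Its markers CDH5 (2.18 to 2.55) and VWF (1.68 to 2.07) stayed near the array median. The part of these lists in the results was not tested. Each difference given is one group's mean log2 value minus another's, with its standard error (SE) from limma. A gene was called where its p, adjusted by Benjamini-Hochberg over all 20572 genes, was below 0.05. Since each sample is RNA of a whole culture, fewer cells with a transcript and less transcript per cell cannot be told apart. The labels do not state whether the 3 samples of a group were separate cultures, and the p-values then cover only the spread among these arrays, possibly a technical one.

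**Figure D1:**
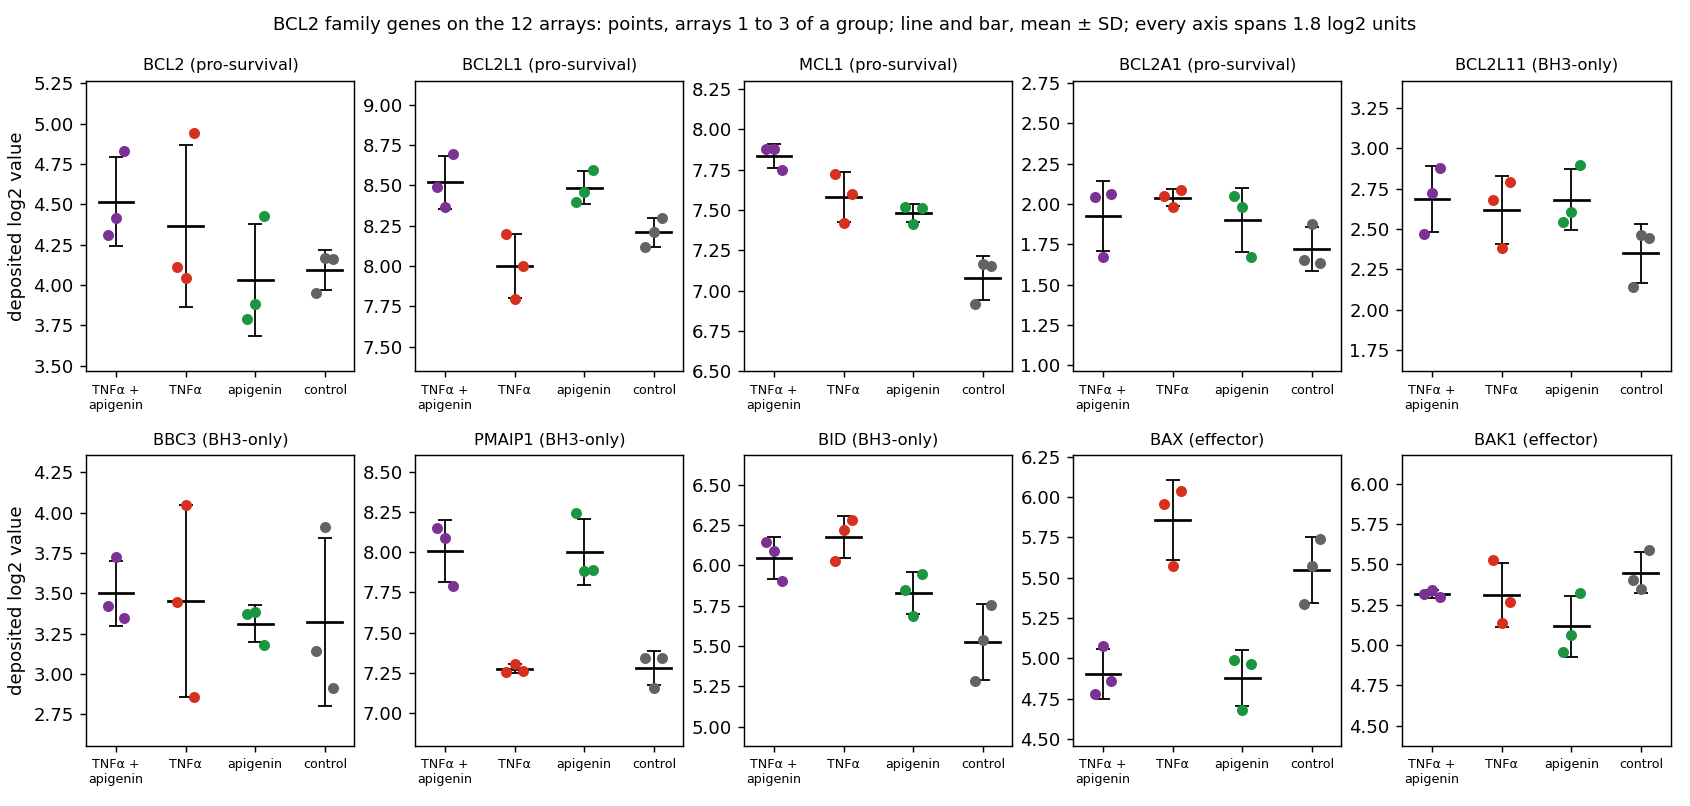
Deposited log2 values of the 10 BCL2 family genes on the 12 arrays, by group; points are arrays 1 to 3 of a group, lines and bars the mean ± SD (n = 3), and every vertical axis spans the same length. PMAIP1 is high and BAX low in both groups that received apigenin, while MCL1 is lowest in control and highest with both treatments.

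The effect of TNFα alone was asked first. BID was the only member called, higher by 0.65 on the log2 scale (1.57-fold), and no member was called lower. This compares with 0.997% of all genes called in this comparison (0.778% higher and 0.219% lower). BID, MCL1 and BCL2A1 did not overlap with control (3 of 10 members, against 13.6% of all genes), all 3 being higher with TNFα (of all genes, 8.42% were higher and 5.22% lower in this way). The median difference of the 10 members was 0.27, and that of all genes 0.02.

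Apigenin alone raised PMAIP1 and MCL1 and lowered BAX, so 3 of 10 members were called, against 11.4% of all genes (4.55% higher and 6.83% lower). The log2 differences were 0.72 for PMAIP1, 0.40 for MCL1 and -0.67 for BAX, with a median of 0.23 over the members and -0.02 over all genes. Groups did not overlap for 6 of 10 members, 4 higher and 2 lower, against 25.5% of all genes (11.1% higher and 14.5% lower).

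In cells that also received TNFα, apigenin raised PMAIP1 by 0.73 and BCL2L1 by 0.52 and lowered BAX (difference -0.95). These 3 of 10 compare with 10.1% of all genes called (4.21% higher and 5.92% lower). The groups did not overlap for 4 members, 3 higher and 1 lower, against 26.2% of all genes (11.6% higher and 14.6% lower). The median of the members was 0.06, and that of all genes -0.01.

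In cells that also received apigenin, TNFα gave no member call in the limma fit, against 0.209% of all genes called, all of them higher. All 10 differences were positive, with a median of 0.11 (0.03 over all genes). MCL1 alone had an unadjusted p below 0.05 and alone did not overlap between the groups (1 of 10, higher, against 14.1% of all genes, with 10.4% higher and 3.77% lower), and no alternative fit called a member.

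Both treatments together, set against control, raised MCL1, PMAIP1 and BID and lowered BAX, which is 4 of 10 members, against 12.5% of all genes called (7.15% higher and 5.37% lower). The median difference was 0.32 over the members and 0.00 over all genes. Groups did not overlap for 8 members, 6 higher and 2 lower, against 27.6% of all genes (14.8% higher and 12.9% lower).

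**Figure D2:**
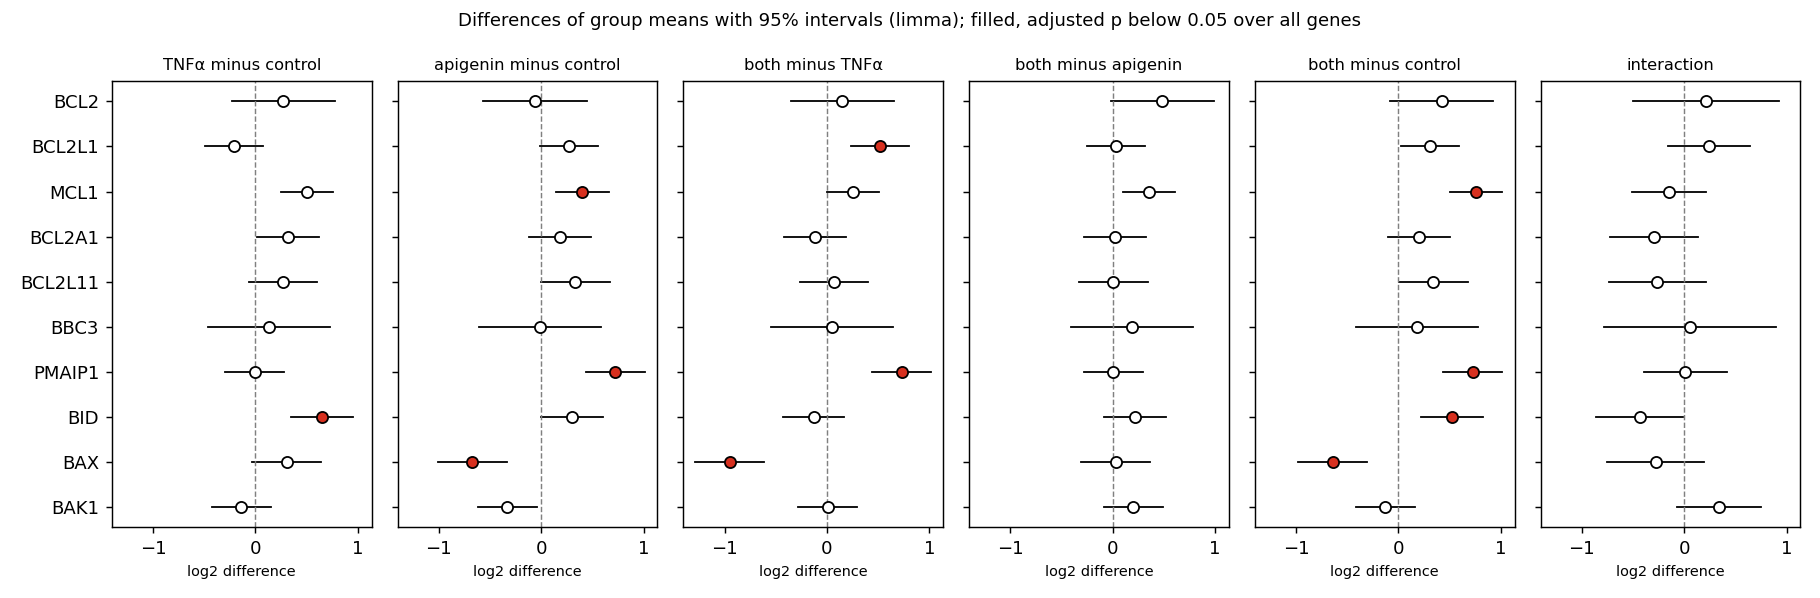
Differences of group means of the 10 genes (log2) in the 5 comparisons of pairs of groups and for the interaction, with 95% intervals from the limma fit; filled points have an adjusted p below 0.05 over all genes. No member is called with both treatments against apigenin or for the interaction.

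Among the pro-survival genes, MCL1 encodes a short-lived protein that binds BIM, NOXA and BAK1. It read 7.87, 7.88 and 7.75 with both treatments, 7.72, 7.42 and 7.60 with TNFα, 7.52, 7.41 and 7.51 with apigenin, and 6.92, 7.16 and 7.15 in control. Every treated array thus stood above every control array, and the arrays with both treatments stood above all others. The difference from control was 0.76 with both treatments (SE 0.12, 1.69-fold, adjusted p = 0.000862), 0.50 with TNFα (SE 0.12, adjusted p = 0.0696) and 0.40 with apigenin (SE 0.12, adjusted p = 0.0428). The call with both treatments held whichever of the 6 arrays was left out (adjusted p = 0.00212 to 0.00593). The call with apigenin alone was lost without each of its 6 arrays in turn, at an adjusted p of 0.163 without control replicate 1, 0.0541 without control replicate 2 and 0.0605 without control replicate 3. Without apigenin replicates 1, 2 and 3 it was 0.130, 0.0701 and 0.109. The TNFα difference, which missed the threshold, passed it without TNFα replicate 2 (adjusted p = 0.0434) and with limma-trend and robust eBayes (adjusted p = 0.0230).

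BCL2L1 encodes BCL-XL, the pro-survival protein that also guards against BAX. Its values were 8.49, 8.37 and 8.69 with both treatments, 8.19, 7.80 and 8.0005 with TNFα, 8.40, 8.46 and 8.60 with apigenin, and 8.12, 8.21 and 8.30 in control. Arrays with apigenin lay above the arrays without it, in cells with TNFα and in cells without it. The difference of both treatments from TNFα was 0.52 (SE 0.13, 1.43-fold, adjusted p = 0.0227), and that of apigenin from control was 0.27 (SE 0.13, adjusted p = 0.240). The call in cells with TNFα was lost without TNFα replicate 2 (adjusted p = 0.0803), TNFα replicate 3 (0.0594), or replicate 1 (0.0660) or 3 (0.0946) of the combined treatment. TNFα alone differed from control by -0.21 (95% interval -0.50 to 0.07, adjusted p = 0.605).

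BCL2, the founding member, was not called in any comparison. It read 4.31, 4.41 and 4.83 with both treatments, 4.11, 4.04 and 4.94 with TNFα, 3.79, 3.88 and 4.43 with apigenin, and 3.95, 4.17 and 4.16 in control. The array numbered 3 was the highest of its group in the 3 treated groups, and the SD reached 0.50 with TNFα, against 0.12 in control. The groups did not overlap only with both treatments against control, where the difference was 0.42 (SE 0.23, adjusted p = 0.310). Its 95% intervals ran from -0.23 to 0.77 for TNFα against control and from -0.56 to 0.44 for apigenin against control.

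BCL2A1, known in other cells as a target of NF-κB, read below the array median on all 12 arrays, at 1.63 to 2.09. Its values were 2.04, 1.67 and 2.06 with both treatments, 2.05, 1.98 and 2.09 with TNFα, 2.05, 1.98 and 1.67 with apigenin, and 1.65, 1.88 and 1.63 in control. The TNFα arrays stood above the control arrays by a mean of 0.32 (SE 0.14, adjusted p = 0.404). Values this near the lower end of the scale, where the filter lay at 1.597 to 1.645, may understate a change in RNA.

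Among the BH3-only genes, PMAIP1 encodes NOXA, which binds MCL1 and A1 and favours the breakdown of MCL1. Its values were 8.15, 8.09 and 7.79 with both treatments, 7.26, 7.31 and 7.26 with TNFα, 8.24, 7.88 and 7.89 with apigenin, and 7.34, 7.16 and 7.35 in control. All 6 arrays with apigenin stood above all 6 without it. Apigenin raised it by 0.72 without TNFα (SE 0.13, 1.65-fold, adjusted p = 0.00316) and by 0.73 with TNFα (SE 0.13, 1.66-fold, adjusted p = 0.00351). TNFα differed from control by -0.01 (95% interval -0.29 to 0.28), and both treatments differed from apigenin by 0.00 (-0.28 to 0.29). The calls of PMAIP1 with apigenin, with both treatments against TNFα and with both against control held in all 15 alternatives of each comparison, with the highest adjusted p at 0.0186, 0.0242 and 0.0179.

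BID links death receptors to mitochondria once its protein is cleaved. It read 6.15, 6.09 and 5.90 with both treatments, 6.03, 6.22 and 6.28 with TNFα, 5.85, 5.69 and 5.95 with apigenin, and 5.28, 5.54 and 5.76 in control. The control arrays spanned more than those of any treated group and lay below all arrays with TNFα, while they overlapped with the apigenin arrays. Against control, BID rose by 0.65 with TNFα (SE 0.14, adjusted p = 0.0437) and by 0.52 with both treatments (SE 0.14, 1.43-fold, adjusted p = 0.0252), and apigenin alone gave 0.30 (SE 0.14, adjusted p = 0.220). The TNFα call was lost without control replicate 1 (adjusted p = 0.199), control replicate 2 (0.124) and TNFα replicate 1 (0.0775), 2 (0.0793) or 3 (0.180). That with both treatments was lost without control replicate 1 (0.113) or 2 (0.0592), and without replicate 1 (0.1004) or 2 (0.0778) of the combined treatment. Quantile normalisation ended both calls (adjusted p = 0.0626 for TNFα and 0.0696 for both treatments).

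BCL2L11 and BBC3 were not called in any comparison. BCL2L11, which encodes BIM, read 2.47, 2.72 and 2.88 with both treatments, 2.68, 2.38 and 2.79 with TNFα, 2.54, 2.60 and 2.90 with apigenin, and 2.14, 2.47 and 2.44 in control. Its difference from control was 0.34 with both treatments (SE 0.16, adjusted p = 0.202), 0.27 with TNFα (adjusted p = 0.565) and 0.33 with apigenin (adjusted p = 0.227). BBC3 encodes PUMA, a p53 target in cells with functional p53. It read 3.42, 3.73 and 3.35 with both treatments, 3.45, 4.05 and 2.86 with TNFα, 3.37, 3.38 and 3.18 with apigenin, and 3.14, 3.91 and 2.91 in control. Its groups overlapped in all 5 comparisons of pairs of groups, the array numbered 2 was the highest of each group, and the 95% interval for apigenin against control was -0.60 to 0.59.

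Of the effectors, BAX gave the largest decrease among the members. It read 4.78, 5.08 and 4.86 with both treatments, 5.96, 5.57 and 6.04 with TNFα, 4.99, 4.68 and 4.96 with apigenin, and 5.33, 5.57 and 5.74 in control. All 6 arrays with apigenin stood below all 6 without it. Apigenin lowered it in cells with TNFα (difference -0.95, SE 0.16, 1.93-fold, adjusted p = 0.00176). In cells without TNFα the difference was -0.67 (SE 0.16, 1.59-fold, adjusted p = 0.0126), and both treatments against control gave -0.64 (SE 0.16, adjusted p = 0.0148). The call in cells with TNFα held in all 15 alternatives (highest adjusted p = 0.0343). That of apigenin against control was lost without control replicate 3 (adjusted p = 0.0534) or apigenin replicate 2 (0.0588). That of both treatments against control was lost without control replicate 3 (0.0557) or replicate 1 (0.0674) or 3 (0.0523) of the combined treatment.

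BAK1, the other effector, was not called in any comparison. It read 5.31, 5.34 and 5.30 with both treatments, 5.53, 5.14 and 5.26 with TNFα, 4.96, 5.06 and 5.32 with apigenin, and 5.40, 5.35 and 5.59 in control. The apigenin arrays lay below the control arrays (difference -0.33, SE 0.13, adjusted p = 0.149), and this passed the threshold with quantile normalisation (adjusted p = 0.0449). In cells with TNFα the difference was 0.01 (95% interval -0.28 to 0.30).

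The upstream sequences of PMAIP1 and BAX are shown because these genes carried the apigenin differences in opposite directions. They are the 250 bases before the annotated start in RefSeq (GRCh38.p14, plus strand for both genes), at chr18:59899746-59899995 for PMAIP1 and chr19:48954625-48954874 for BAX. Capitals mark exact matches on either strand to the GC box GGGCGG, to the core of the cAMP response element TGACGT and to the E-box CACGTG, which were chosen after the values were seen.
PMAIP1: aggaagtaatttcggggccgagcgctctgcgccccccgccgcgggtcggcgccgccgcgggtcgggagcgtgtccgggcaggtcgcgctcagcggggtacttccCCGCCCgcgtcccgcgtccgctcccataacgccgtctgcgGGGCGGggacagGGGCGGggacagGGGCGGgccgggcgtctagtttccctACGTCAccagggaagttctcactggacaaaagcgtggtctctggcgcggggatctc
BAX: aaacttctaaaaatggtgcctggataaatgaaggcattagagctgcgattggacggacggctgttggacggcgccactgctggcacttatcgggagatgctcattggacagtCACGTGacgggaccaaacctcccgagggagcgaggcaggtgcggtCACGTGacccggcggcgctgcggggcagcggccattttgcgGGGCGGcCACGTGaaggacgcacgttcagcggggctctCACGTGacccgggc
PMAIP1 held 4 GC boxes and 1 response element core, which lay at positions -56 to -51 from the start on the minus strand, with no E-box. BAX held 1 GC box and 4 E-boxes, and the GC box does not overlap with them. Of 35116 promoters of the same length, 42.6% held a GC box, 7.1% the response element core and 6.3% an E-box. Of these promoters 7.63% held 4 or more GC boxes, and 4 or more E-boxes were found in 5 of them. Among the other members, E-boxes also lay upstream of BBC3 and BID, which differed by -0.01 and 0.30 with apigenin against control. GC boxes also lay upstream of BAK1 (2), BCL2L11 (3) and BID (0 to 4 over its annotated starts). None of these genes was called with apigenin against control in the limma fit. These matches are letters in a window, and binding of any factor was not measured.

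Promoters of 300 bases (250 before to 50 after the start) were in the RefSeq table for 9 of the 10 genes, 14 promoters in all. MCL1 was the gene without one, and some of the 14 are overlapping windows of BID. The NF-κB consensus, searched on both strands, had no match in them and was found in 5.91% of all 35116 promoters. With a share that small, no match in 14 promoters says little about these genes, and MCL1 was not searched. The composite CHOP-ATF4 element TGATGNAAN was found in BCL2A1 alone, as TGATGCAAA, against 3.61% of all promoters. The E2F core TTTNGCGC was found in 1 promoter of BCL2L1, as TTTTGCGC, against 1.79% of all promoters.

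Whether TNFα and apigenin acted additively was asked with the interaction, the TNFα response with apigenin minus the response without it. No member was called in the limma fit or any alternative, against 0.0535% of all genes (0.00972% higher and 0.0437% lower), and BID alone had an unadjusted p below 0.05. BID differed by -0.43 (SE 0.20, 95% interval -0.86 to -0.01, adjusted p = 0.999). The single treatments of BID summed to 0.95, and both together gave 0.52. For PMAIP1 the interaction was 0.01 (95% interval -0.40 to 0.42), for MCL1 -0.15 (-0.51 to 0.21), for BCL2L1 0.25 (-0.16 to 0.65), for BAX -0.28 (-0.76 to 0.20) and for BAK1 0.34 (-0.07 to 0.75). Additive responses of these members were thus not shown, since the intervals also hold differences in response.

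**Figure D3:**
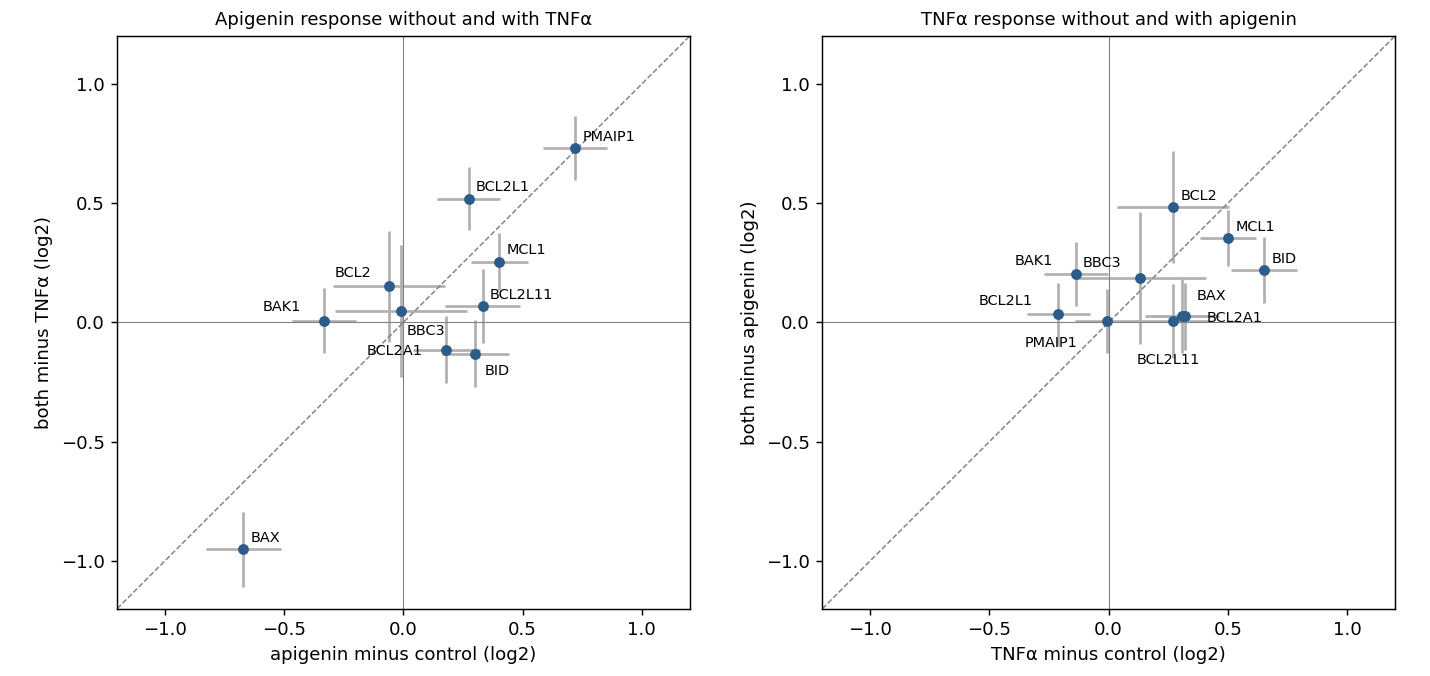
The apigenin response of the 10 genes with TNFα (vertical) and without it (horizontal), left, and the TNFα response with apigenin (vertical) and without it (horizontal), right, in log2 units with SE bars; the dashed line marks equal responses. In the left plot PMAIP1 lies at 0.73 and BAX at -0.95 on the vertical axis, and in the right plot they lie at 0.00 and 0.03.

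The rest of the apoptosis pathway was read from 5 lists. The other BCL2 family genes gave no call with TNFα (0 of 13 tested genes in the limma fit and its alternatives), against 0.997% of all genes. With a share that small, 0 of 13 says little about these genes. None had an unadjusted p below 0.05, against 2387 of the 20572 genes. With apigenin 2 of 13 fell, against 6.83% of all genes (median -0.18, against -0.02 over all genes). The count was 1 without control replicate 1 or apigenin replicate 1 or 2, and 4 with the replicate block. BNIP3L, a mitophagy receptor, fell with apigenin by 0.76 without TNFα and by 0.74 with it (SE 0.13 each), and held in all alternatives. It averaged 8.55 ± 0.11 with both treatments, 9.29 ± 0.19 with TNFα, 8.58 ± 0.18 with apigenin and 9.34 ± 0.09 in control (SD, n = 3 each). BOK, a BAX-like effector, differed by -0.88 with apigenin (adjusted p = 0.0178) and lost this call without control replicate 1 (0.0813) or apigenin replicate 1 (0.0705) or 2 (0.0805). BAD, a BH3-only gene, was called with both treatments against control (-0.44, adjusted p = 0.0240), and leaving out any of 5 of the 6 arrays ended this call (0.0514 to 0.0974).

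Downstream, of the mitochondrial release and apoptosome genes 4 of 13 were called lower with apigenin, against 6.83% of all genes. None was called higher (median -0.05, against -0.02 over all genes). The count was 2 without apigenin replicate 1 or 2, and 5 of the 13 differences were positive, with CYCS, which encodes cytochrome c, at 0.51 (adjusted p = 0.0803). In cells with TNFα 3 of 13 fell with apigenin, against 5.92% of all genes (median -0.24, against -0.01 over all genes), and 6 of the 13 differences were positive. None of the 13 was called with TNFα alone in the limma fit or its alternatives, against 0.997% of all genes in the limma fit. VDAC3 alone had an unadjusted p below 0.05 there (difference -0.24, adjusted p = 0.383). AIFM1, a mitochondrial flavoprotein that can enter the nucleus in cell death, fell with apigenin by 0.996 without TNFα and by 0.92 with it (SE 0.18 each, adjusted p = 0.00277 and 0.00578). The outer membrane channel gene VDAC3 fell by 0.73 without TNFα and 0.50 with it (SE 0.10 each, adjusted p = 0.000392 and 0.00602). The executioner caspase gene CASP6 differed by -1.14 (SE 0.29, adjusted p = 0.0217) and lost this call without control replicate 3 (0.0859) or apigenin replicate 1 (0.0583) or 2 (0.0953). CASP9, the apoptosome's caspase, differed by -0.63 (adjusted p = 0.0266), a call lost without the same 3 arrays (0.107, 0.0738 and 0.104).

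Inhibitors of apoptosis proteins block caspases or signal from TNF receptors, and 6 of 7 were tested. BIRC2, which encodes cIAP1, averaged 7.60 ± 0.08 with both treatments, 7.23 ± 0.17 with TNFα, 6.84 ± 0.16 with apigenin and 6.65 ± 0.21 in control (SD, n = 3 each). It rose with both treatments against control by 0.95 (SE 0.14, adjusted p = 0.000544). Against apigenin it rose by 0.77 (adjusted p = 0.0428), a call lost whichever of its 6 arrays was left out (0.107 to 0.244). BIRC5, which encodes survivin, was higher with apigenin by 0.40 (adjusted p = 0.0339), a call lost without control replicate 2 or 3 or any apigenin array (0.0578 to 0.122).

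Of the TNF and death receptor genes 3 of 12 tested were called higher with TNFα, against 0.778% of all genes. None was called lower (median 0.25, against 0.02 over all genes). With apigenin 1 rose and 2 fell, against 4.55% and 6.83% of all genes (median -0.31, against -0.02), and the replicate block called 5 in place of 3. TNFSF10, which encodes the death ligand TRAIL, averaged 6.83 ± 0.18 with both treatments, 8.61 ± 0.11 with TNFα, 6.42 ± 0.11 with apigenin and 7.73 ± 0.08 in control (SD, n = 3 each). Of its receptor genes, TNFRSF10B rose with TNFα (0.78, adjusted p = 0.00569) and TNFRSF10A with apigenin (0.47, adjusted p = 0.00636). Both receptor genes rose with both treatments against control, TNFRSF10A by 0.80 (adjusted p = 0.000134) and TNFRSF10B by 0.92 (adjusted p = 0.000233). A difference between the receptor genes was not tested. CFLAR, whose product c-FLIP restrains caspase 8, was higher with TNFα by 0.59 (adjusted p = 0.0321) and lower with apigenin (difference -0.44, adjusted p = 0.0304). The TNFα call of CFLAR was lost without control replicate 1 (0.135) or 2 (0.106) or TNFα replicate 1 (0.112) or 3 (0.153). Its apigenin call was lost whichever array was left out (0.0563 to 0.1003).

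Genes known to act on the transcription or stability of BCL2 family members were also listed, and 16 were tested. With TNFα 4 of the 16 were called higher, against 0.778% of all genes. Apigenin gave 3 called higher, against 4.55% of all genes, and none was called lower in either comparison. The TNFα count was 2 without control replicate 1 or 2 or TNFα replicate 3. The apigenin count was 1 without control replicate 2 or any of the 3 apigenin arrays. With apigenin CEBPB was higher by 0.48 (adjusted p = 0.0139), FBXW7 by 0.72 (0.0288) and NFKB1 by 0.51 (0.0191). The apigenin call of CEBPB was lost without control replicate 3 (0.0536) or apigenin replicate 1 (0.0545), and that of NFKB1 without control replicate 2 (0.0751) or apigenin replicate 2 (0.0509) or 3 (0.0719). That of FBXW7 was lost without control replicate 1 or 2 or any apigenin array (0.0734 to 0.108). NFKB1 rose by 1.25 with TNFα (SE 0.13, adjusted p = 0.000179), and the transcription factor gene CEBPB by 0.77 (adjusted p = 0.00395). REL rose by 0.89 (adjusted p = 0.0156), a call lost without control replicate 1 (0.0530) or 2 (0.0702) or TNFα replicate 3 (0.0752). STAT3 was higher by 0.60 (adjusted p = 0.0498), a call lost without control replicate 1 or 2 or TNFα replicate 1 or 3 (0.174 to 0.234). In cells with TNFα, 1 of the 16 was called higher and 1 lower with apigenin, against 4.21% and 5.92% of all genes. Counts this small lie near those shares and say little about the list, and leaving out 1 array gave 0 to 4 called regulators. The 2 called genes, FBXW7 and HUWE1, encode ubiquitin ligases that mark MCL1 protein. The other 14 regulators, BTRC and USP9X among them, were not called. FBXW7 was higher by 0.71 (SE 0.20, adjusted p = 0.0349) and HUWE1 lower (difference -0.62, SE 0.14, adjusted p = 0.0115). The FBXW7 call was lost without TNFα replicate 1 (0.119) or 2 (0.0976) or replicate 1 (0.0779) or 3 (0.135) of the combined treatment. That of HUWE1 was lost without TNFα replicate 1 (0.0599) or replicate 1 of the combined treatment (0.0611).

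**Figure D4:**
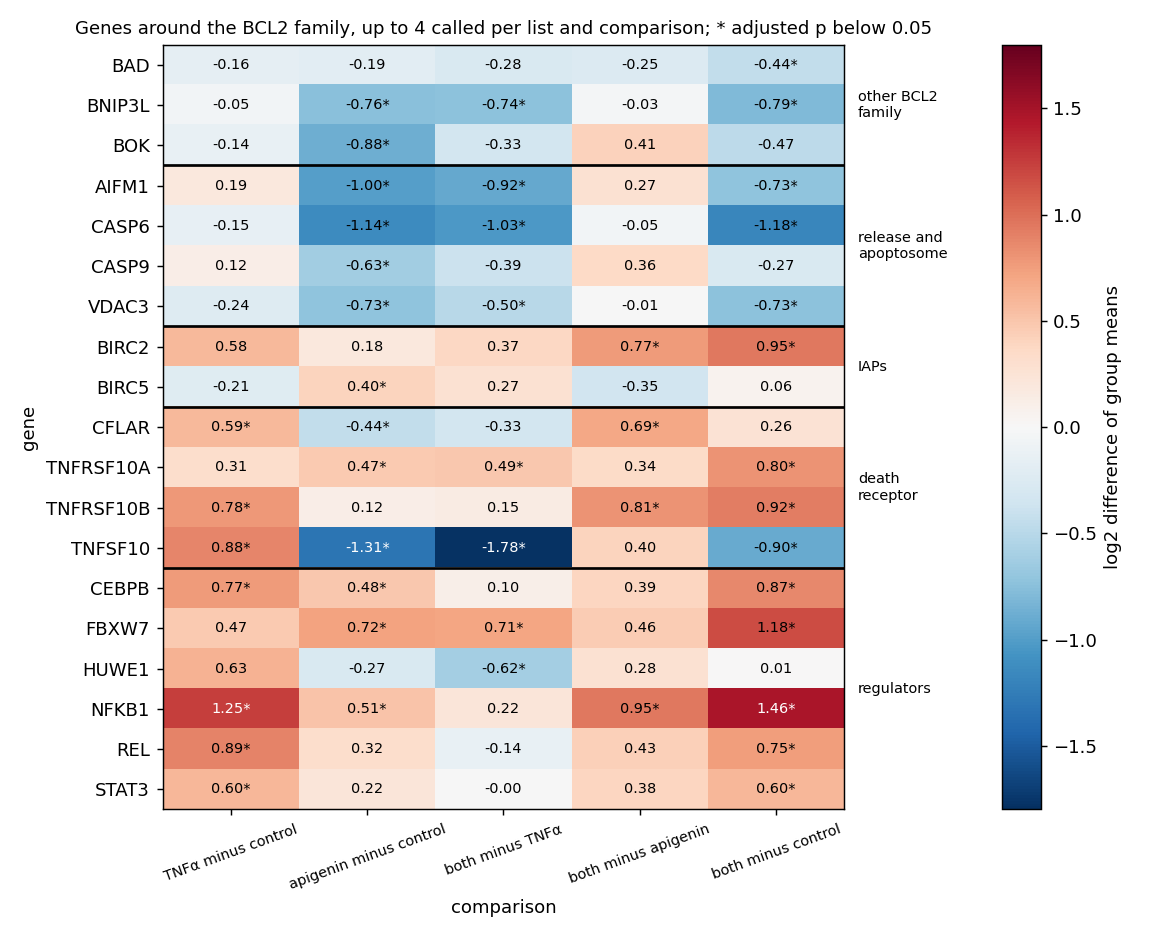
Log2 differences of group means (colour and printed value) of the 19 named genes around the BCL2 family (rows, grouped by list), which are shown because they were called in at least 1 comparison, in the 5 comparisons of pairs of groups (columns); an asterisk marks an adjusted p below 0.05. The 4 release and apoptosome genes shown, of 13 tested, are blue in the columns of apigenin against control and of both treatments against TNFα, and TNFSF10 changes sign between TNFα and apigenin.

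The genes whose values followed PMAIP1 most closely over the 12 arrays were ELOF1 (Pearson r = 0.98), TRIR (r = 0.97) and SEMA7A (r = 0.97). Those nearest to BID were FBXL18 (r = 0.92), the NF-κB inhibitor gene NFKBIA (r = 0.90) and NUS1 (r = 0.90). These correlations are descriptions, since the 12 arrays share 4 treatments and any gene with the same group differences correlates.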

How the data were processed

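Total RNA of the 12 samples was biotin-labelled with a whole-transcript kit and hybridised to Affymetrix arrays, per the labels' protocols. The authors deposited 1 log2 value per probe set and array, and the submitters' processing notes name Affymetrix Expression Console. Its version, algorithm and settings were not given in the sources used here, nor was a genome build.

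Of 53617 probe sets, 23871 had 1 gene symbol in the platform's probe table. Those at or above the 25th percentile of their array on at least 3 arrays were kept, and a gene was read from its highest probe set, which left 20572 genes. A model with 4 group means was fitted with limma 3.58.1 in R 4.3.3 (8 residual degrees of freedom). Every adjusted p comes from it, except where an alternative or a left-out array is named. Benjamini-Hochberg adjustment was over all genes of a comparison. The number of arrays limits the precision. A simulation of TNFα against control over 20572 genes recovered 83% of the genes given a log2 change of 1. It recovered 100% of those given 2. Its noise was independent between arrays. All member differences were below 1 in size, so it does not show how often changes of their size would be called. The rule for named genes took the 10 members, up to 4 called genes per list and comparison, and the 3 genes most like the leading member for TNFα and for apigenin. The model of 4 group means held no term for the replicate number in any comparison, so its p-values ignore any pairing by number. Replicate numbers were read as pairing the samples where all 3 same-numbered pairs of arrays correlated above 0.1 in their deviations from the group means. This held for apigenin against control (0.102 to 0.332). In the other comparisons of pairs of groups the lowest pair lay between 0.0605 and 0.0735, which does not show that those samples were unpaired. Members and lists were chosen with earlier results of these data known. Listed genes without a kept probe set of their own (9 of 69) were not analysed here. Alternatives were quantile normalisation, other filters, limma-trend, array weights, a replicate block, pairwise fits, probe set means and leaving out arrays.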

Additional observations from a re-analysis of the deposited data

How the results depend on the processing

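None of the 11 calls of members changed sign in its 165 alternative values, and 5 stayed called in all of them: PMAIP1 in 3 comparisons, BAX with both treatments against TNFα, and MCL1 with both treatments against control. The 49 uncalled values took the other sign in 62 of 779 alternatives. For TNFα against control the 1 called member became 0 with quantile normalisation, with a fit of the 2 groups alone and without all 4 arrays numbered 3, and 2 (BID and MCL1) with limma-trend, array weights or the replicate block. For apigenin against control 3 became 1 without the arrays numbered 3. Leaving out 1 array gave 0 to 1 called members for TNFα, 1 to 2 for apigenin, 2 to 3 for both treatments against TNFα, 2 to 3 against control and 0 for the remaining comparisons. Without the arrays numbered 3 the BAX calls with apigenin (adjusted p = 0.0913) and with both treatments against control (0.138), and that of BCL2L1 (0.170), were lost as well; that setting leaves fewer samples. A fit of the 2 groups alone also ended the calls of MCL1 with apigenin (0.0949), BCL2L1 (0.0587) and BID with both treatments against control (0.0603). BCL2A1 gave no value under the stricter filter.

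Over all groups 13 of 18 same-numbered pairs of arrays correlated above 0.1 in their deviations (0.0182 to 0.464), and 11 of 12 arrays matched their own number best. All 3 pairs did so only for apigenin against control, where the block left the 3 member calls as they were and gave 3501 called genes (2342 without it). With the replicate block MCL1 passed for TNFα against control (adjusted p = 0.0423), and no other member call changed. All-gene counts with the block were 632 for TNFα against control (205 without it), 3315 for both treatments against TNFα (2085) and 100 against apigenin (43). Called genes among regulators became 6 (2 without the block) for both treatments against TNFα.

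Other all-gene counts that moved by over 1.5 times were 331 (array weights), 73 (2 groups alone) and 85 (without the arrays numbered 3) for TNFα against control, and 77, 21 and 15 for both treatments against apigenin. Without the arrays numbered 3 they were also 1505 for apigenin against control (2342 with them), 1288 for both against TNFα and 2 for the interaction (11), which gave 3 with limma-trend. Leaving out 1 array gave 98 to 314, 1534 to 2050, 1191 to 2063, 15 to 31 and 2 to 6 for TNFα, apigenin, both against TNFα, both against apigenin and the interaction. Quantile normalisation moved the share of higher calls to 59.5% for TNFα (78% otherwise) and to 38.8% for both treatments against control (57.1%). Of 46 calls of list genes, 19 held in all 15 alternatives, which were extended to the list genes after seeing the data. The cause of these shifts was not tested.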

Other observations

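Only 5 of 35116 promoters held 4 or more E-boxes (CACGTG) in the 250 bases before the start, and they belonged to AMDHD2, RAD9A, BAX, LAMP1 and SLC25A31, genes looked at after the BAX values were seen. AMDHD2 and RAD9A were not analysed here. LAMP1, which encodes a lysosomal membrane protein, held 5 E-boxes and was higher with apigenin against control by 0.47 on the log2 scale (SE 0.11, adjusted p = 0.0159 in limma). SLC25A31, a mitochondrial carrier gene, differed by 0.00 in that comparison (adjusted p = 0.999), and BAX by -0.67. For both treatments against TNFα the differences were 0.18 for LAMP1 (adjusted p = 0.418), -0.12 for SLC25A31 (adjusted p = 0.647) and -0.95 for BAX.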
